A study of Mus musculus with 8 samples.

Results

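Ly6d encodes a surface protein whose appearance on common lymphoid progenitors marks cells moving towards the B lineage, and 4 arrays of progenitors lacking the transcription factor E2A were set apart by their Ly6d level. The 4 arrays, E2A_KO 1 to 4, are all the E2A knockout arrays of a series of 8. Arrays with a log2 level of Ly6d above 6 were called Ly6d-high (2 arrays, E2A_KO 1 and 4), and those below 6 Ly6d-low (2 arrays, E2A_KO 2 and 3). Ly6d stood at 6.75 and 6.88 on E2A_KO 1 and 4 and at 4.48 and 4.26 on E2A_KO 2 and 3. The nearest values on either side of the threshold were therefore 6.75 and 4.48. The arrays were chosen by a measured value, so what separates them is given as a description, without a test and without an average per side.

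The study asked what the E proteins E2A and HEB do in the earliest lymphoid progenitors. RNA came from bone marrow of C57bl/6 mice aged 10 to 13 weeks, either wild type (WT, 2 arrays), HEB-KO (HEB_KO, 2 arrays) or E2A-KO (E2A_KO, 4 arrays), and the sources used here give no details of the knockout alleles. Cells in every group were gated as LIN-FLT3+CD127+LY6D- and had received no treatment that the labels name. Each sort pooled cells from several marrows, with 2 or more sorts per genotype, so the p-values below reflect the scatter of pools and say nothing of the scatter between individual mice. The sources used here do not say whether the 4 E2A_KO arrays came from 4 different sorts. The gate reads LY6D protein on the surface, yet the Ly6d transcript lay at the 82.0 and 84.2 percentiles of all probe sets on E2A_KO 1 and 4. On E2A_KO 2 and 3 it lay at percentiles 59.1 and 56.0. The label of a LY6D-negative population therefore describes the gate and not an absence of the transcript on E2A_KO 1 and 4.

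E2A, the product of Tcf3, is a basic helix-loop-helix factor that binds E box sequences and switches on Ebf1 and Foxo1, which in turn start the B-lineage program. The same progenitors can still give rise to T cells, natural killer (NK) and other innate lymphoid cells, and plasmacytoid dendritic cells, and the ETS factor encoded by Spib acts in both B cells and plasmacytoid dendritic cells. MHC class II molecules present peptides to T cells, are made by B cells and dendritic cells, and depend on CIITA, which is recruited to class II promoters by factors bound at the X box and by NF-Y bound at the Y box.

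Promoters are shown for 4 genes whose levels followed Ly6d without E2A. The 3 class II genes among them are the only members of that list found to hold the Y box motif marked below. Each is the 250 bases before the RefSeq start of the gene in build GRCm38.p6, on the gene's strand: H2-Aa at chr17:34287824-34288073 (minus strand), H2-Eb1 at chr17:34305617-34305866 (plus strand), H2-Oa at chr17:34092129-34092378 (plus strand) and Spib at chr7:44532072-44532321 (minus strand). In the class II genes the capitals mark CTGATTGG, the core of the Y box, and in Spib they mark CANNTG, the E box.
H2-Aa: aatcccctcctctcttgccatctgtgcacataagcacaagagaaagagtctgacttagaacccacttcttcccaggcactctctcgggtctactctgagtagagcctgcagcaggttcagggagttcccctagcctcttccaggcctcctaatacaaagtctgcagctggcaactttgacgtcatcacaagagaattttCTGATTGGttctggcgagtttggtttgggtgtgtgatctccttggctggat
H2-Eb1: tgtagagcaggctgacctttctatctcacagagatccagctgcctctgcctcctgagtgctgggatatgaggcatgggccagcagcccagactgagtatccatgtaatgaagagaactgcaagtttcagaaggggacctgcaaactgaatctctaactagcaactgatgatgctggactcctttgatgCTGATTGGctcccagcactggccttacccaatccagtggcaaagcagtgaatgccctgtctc
H2-Oa: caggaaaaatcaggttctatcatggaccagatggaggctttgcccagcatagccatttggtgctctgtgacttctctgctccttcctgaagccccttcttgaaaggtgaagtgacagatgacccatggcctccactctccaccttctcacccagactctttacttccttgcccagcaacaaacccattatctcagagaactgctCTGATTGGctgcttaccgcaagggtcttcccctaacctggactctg
Spib: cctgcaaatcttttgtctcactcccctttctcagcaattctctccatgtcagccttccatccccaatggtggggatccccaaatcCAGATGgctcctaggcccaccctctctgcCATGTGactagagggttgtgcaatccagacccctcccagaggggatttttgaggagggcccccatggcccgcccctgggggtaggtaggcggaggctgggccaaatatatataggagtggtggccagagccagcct

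The Y box core began 51, 62 and 46 bases before the start of H2-Aa, H2-Eb1 and H2-Oa. Both strands were searched, and all 3 matches lay on the strand of the gene. Of 15 members of the class II list with a promoter in the table, these 3 held the core, as did 3.83% of all 32851 promoter windows of that length. The first count is of genes, some with 2 or 3 windows, and the second is of windows. Nfya, Lgmn and Ctss, which were also higher on both Ly6d-high arrays, had windows without the core. So did H2-DMa, H2-DMb2 and H2-Ob, which did not separate the sides, while H2-Ab1 and Cd74 had no window. Whether the core goes with following Ly6d was not tested. Spib held E boxes beginning 165 and 136 bases before its start. An E box stood in 66.2% of all windows, with a median of 1 per window; most promoters of this length hold it. A match is a description of the sequence and not evidence of binding.

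Tcf3, the targeted gene, read 7.76 and 7.98 in WT, 8.57 and 8.44 in HEB_KO and 4.28, 3.71, 4.05 and 3.90 on E2A_KO 1 to 4. It fell in E2A_KO by 3.89 on the log2 scale against WT (SE 0.22) and was low on both sides of the Ly6d split. The median log2 intensity per array lay between 3.82 and 3.95, and the number of arrays limits precision. E2A_KO 3 stood apart: over all genes it correlated with the other E2A_KO arrays at 0.925 to 0.935, whereas E2A_KO 1 correlated at 0.963 with E2A_KO 4 and at 0.961 with E2A_KO 2. Poly-A spike transcripts, which are added as controls for labelling, averaged 10.53 and 11.69 on the Ly6d-high arrays and 12.11 and 12.67 on the Ly6d-low arrays, and the distance between the 3' and 5' Gapdh control probes was 5.54 and 5.38 against 5.97 and 5.72. Both measures were lower on both Ly6d-high arrays, and their part in the results was not tested. The same distance for actin and the hybridization controls overlapped between the sides. Pools also differed in sex-linked signal, with Xist at 12.26 and 11.89 on E2A_KO 2 and 4 and at 2.50 and 2.56 on E2A_KO 1 and 3, which crosses the Ly6d split.

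Without E2A, the genes that went with Ly6d included Spib, genes of plasmacytoid dendritic cells and the class II genes H2-Aa, H2-Eb1, H2-Ab1 and Cd74, together with Id2, Il18r1 and Tox from the innate lymphoid list. Of the dendritic cell genes, Tlr9 ran the other way and Tcf4 overlapped between the sides on its brightest probe set. The B-lineage genes Blk, Syk and Foxo1 went with Ly6d as well, on their brightest probe sets. Ebf1, Pax5 and Vpreb1, also of the B-lineage list, and the recombination gene Rag1 did not go with it. Their levels on the E2A_KO arrays were near or below the array medians, which left little room for the sides to separate. The measure used is the gap, the lowest value on one side minus the highest on the other in log2 units, which is 0 where the sides overlap. Both Ly6d-high arrays lay above both Ly6d-low arrays for 2781 of 11957 tested genes (23.3%) and below them for 1545 (12.9%). The gap reached 1, at least a 2-fold distance between any high and any low array, for 68 genes upward (0.569%) and 12 downward (0.100%). The 68 include Ly6d itself. With 1 of the 4 arrays left out, these counts ran from 215 (without E2A_KO 4) to 753 (without E2A_KO 2) upward and from 33 (without E2A_KO 4) to 181 (without E2A_KO 2) downward. For comparison, the median difference of a gene between the 2 Ly6d-high arrays was 0.307, and between the 2 Ly6d-low arrays 0.405. RNA was measured in bulk, so fewer cells of a type and less RNA per cell cannot be told apart.

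By list, both Ly6d-high arrays were above both Ly6d-low arrays for 8 of 18 tested MHC class II genes (44.4%), 11 of 26 dendritic cell genes (42.3%), 8 of 19 NK and innate lymphoid genes (42.1%) and 9 of 22 lymphoid priming genes (40.9%). The B-lineage list stood near the share of all genes, with 6 of 27 higher (22.2%) and 4 lower (14.8%). Granulocyte and monocyte genes ran the other way, with 10 of 25 lower (40.0%) and 2 higher (8.0%). A gene was tested where its probe set exceeded the median of at least 2 arrays, and Cybb, Pacsin1 and Pdcd1 did so only because of the Ly6d-high E2A_KO arrays, so the filter favoured their being higher. Counting only genes that pass the filter without those arrays, 9 of 24 dendritic genes (37.5%) and 7 of 17 innate lymphoid genes (41.2%) were higher, beside 23.2% of all 11680 such genes, and the counts of the class II, priming and B-lineage lists stayed the same. Without E2A_KO 3, the array that stood apart, the higher members were 11 of 18 class II genes (61.1%), 15 of 26 dendritic cell genes (57.7%), 11 of 19 innate lymphoid genes (57.9%) and 13 of 27 B-lineage genes (48.1%), beside 40.0% of all tested genes. Leaving out 1 array eases separation, and some counts also grew by over 1.5 times without E2A_KO 1 and without E2A_KO 2. The former run had 12 of 27 B-lineage (44.4%), 14 of 19 innate lymphoid (73.7%) and 17 of 26 dendritic genes (65.4%) higher, beside 36.8% of all genes. The latter had 18 of 26 dendritic genes (69.2%) higher, beside 44.5% of all genes, and 11 of 27 B-lineage genes (40.7%), below that share. In the latter run 19 of 25 granulocyte and monocyte genes (76.0%) were lower, beside 30.5% of all genes. Without E2A_KO 4 the share of all tested genes was 39.1%, and the dendritic list stood near it, with 11 of 26 higher (42.3%). The same run had 9 of 18 class II (50.0%), 9 of 19 innate lymphoid (47.4%) and 8 of 27 B-lineage genes (29.6%) higher. The median member of the class II list deviated from its mean over the 4 arrays by 0.169 and 0.446 on E2A_KO 1 and 4 and by -0.213 and -0.437 on E2A_KO 2 and 3, where the median over all genes was 0.077, 0.025, -0.020 and -0.051. For the B-lineage list the same medians were -0.017 and 0.031 against -0.093 and 0.066, with the sides overlapping.

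**Figure D1:**
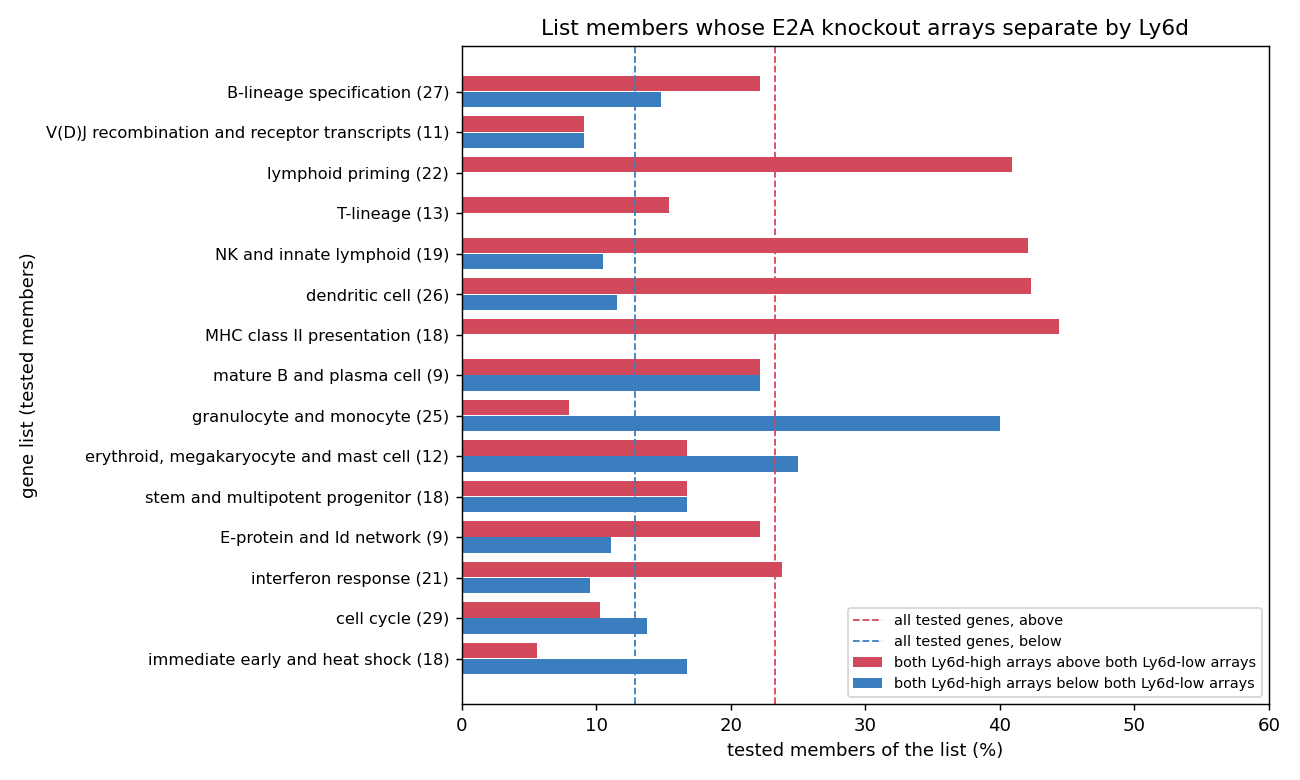
Share of tested members of each gene list (horizontal axis, percent) for which both Ly6d-high E2A_KO arrays lay above (red bars) or below (blue bars) both Ly6d-low arrays, with the number of tested members in brackets and the share over all tested genes as dashed lines (23.3% above and 12.9% below). The MHC class II, dendritic cell, NK and innate lymphoid and lymphoid priming lists reach 40.9% to 44.4% above, and the granulocyte and monocyte list reaches 40.0% below.

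Among B-lineage genes only Spib and Blk reached a gap of 1 upward. Blk, a SRC-family kinase of B cells and some other lymphocytes, read 5.13 and 5.88 on E2A_KO 1 and 4 and 3.90 and 3.92 on E2A_KO 2 and 3, a gap of 1.20. Its Ly6d-high values lay within the range of the arrays with E2A, where WT 1 and 2 read 5.56 and 7.09 and HEB_KO 1 and 2 read 6.70 and 4.84. Syk, a kinase downstream of antigen receptors and integrins, read 8.65 and 8.49 against 7.64 and 7.34 (gap 0.85), and all 4 values lay below the lowest array with E2A (9.21). A dimmer Syk probe set ran the same way (gap 0.42), but its 7.76 on E2A_KO 4 lay within its range with E2A (7.32 to 7.84). Another had a gap of 0.14, and a further one overlapped. Foxo1, a forkhead factor needed for the B-lineage program, read 6.60 and 6.34 against 5.53 and 5.60 (gap 0.74). These 4 values were below the lowest array with E2A as well (7.68), and Foxo1 fell in E2A_KO against WT by 2.19 on the log2 scale (SE 0.35, limma adjusted p 0.0416, 4 of 4 arrays below both WT arrays). The call was lost without WT 1 or WT 2 (limma adjusted p 0.149 and 0.332), without E2A_KO 2 or 4 (0.0889 and 0.0642) and with the mean of the probe sets (difference -0.92, adjusted p 0.147). The 3 other Foxo1 probe sets did not separate the sides in the same direction. Cd79b, a signalling chain of the B-cell receptor, was higher by 0.17 and the progenitor factor Myb by 0.07, both smaller than the difference of a typical gene between arrays of the same side.

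Ebf1, the factor that specifies the B lineage, read 2.40 and 2.49 on the Ly6d-high arrays and 2.32 and 3.06 on the Ly6d-low arrays. The sides overlapped, and all 4 values were below the lowest array with E2A (3.46). Pax5, which commits cells to the B lineage, read 3.81 and 3.85 on the Ly6d-high arrays and 4.12 and 4.07 on the Ly6d-low arrays, all close to the array medians, and so slightly lower on the Ly6d-high side. Vpreb1, a part of the surrogate light chain, read 4.06 and 3.90 against 3.82 and 4.64, again with overlap. Its partner Igll1 (5.33 and 5.33 against 5.64 and 5.38) and Cd79a, the other signalling chain of the B-cell receptor (3.34 and 3.34 against 3.50 and 4.0), were slightly lower on the Ly6d-high arrays. Btk, the kinase mutated in agammaglobulinaemia, was lower there by a gap of 0.38 (7.65 and 7.61 against 8.03 and 8.03). Blnk, the adaptor that links SYK to BTK, read 6.53 and 6.97 against 6.62 and 4.69, so its low value on E2A_KO 3 made no separation. The summed linear intensity of the list was 10830 and 10920 against 10170 and 9975, and 14170 to 16410 on the arrays with E2A. In all, 9 of the 27 tested B-lineage genes (33.3%) had all 4 E2A_KO arrays below all 4 arrays with E2A, where 1199 of all 11957 tested genes (10.0%) did so.

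Recombination genes did not go with Ly6d either. Rag1, which cuts antigen receptor genes, read 4.46 and 3.63 on E2A_KO 1 and 4 and 3.41 and 4.13 on E2A_KO 2 and 3. Its partner Rag2 read 5.65 and 6.03 against 4.99 and 5.74. Dntt, the terminal transferase that adds bases at the joins, read 12.72 and 12.16 against 12.40 and 12.97. All 3 overlapped between the sides, and of the 11 tested members of the list only Xrcc5, a DNA end-joining gene, was higher (gap 0.35) and only the chromatin protein gene Hmgb2 lower (gap -0.29). Each makes 9.09% of the list, where 23.3% of all tested genes were higher and 12.9% lower.

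**Figure D2:**
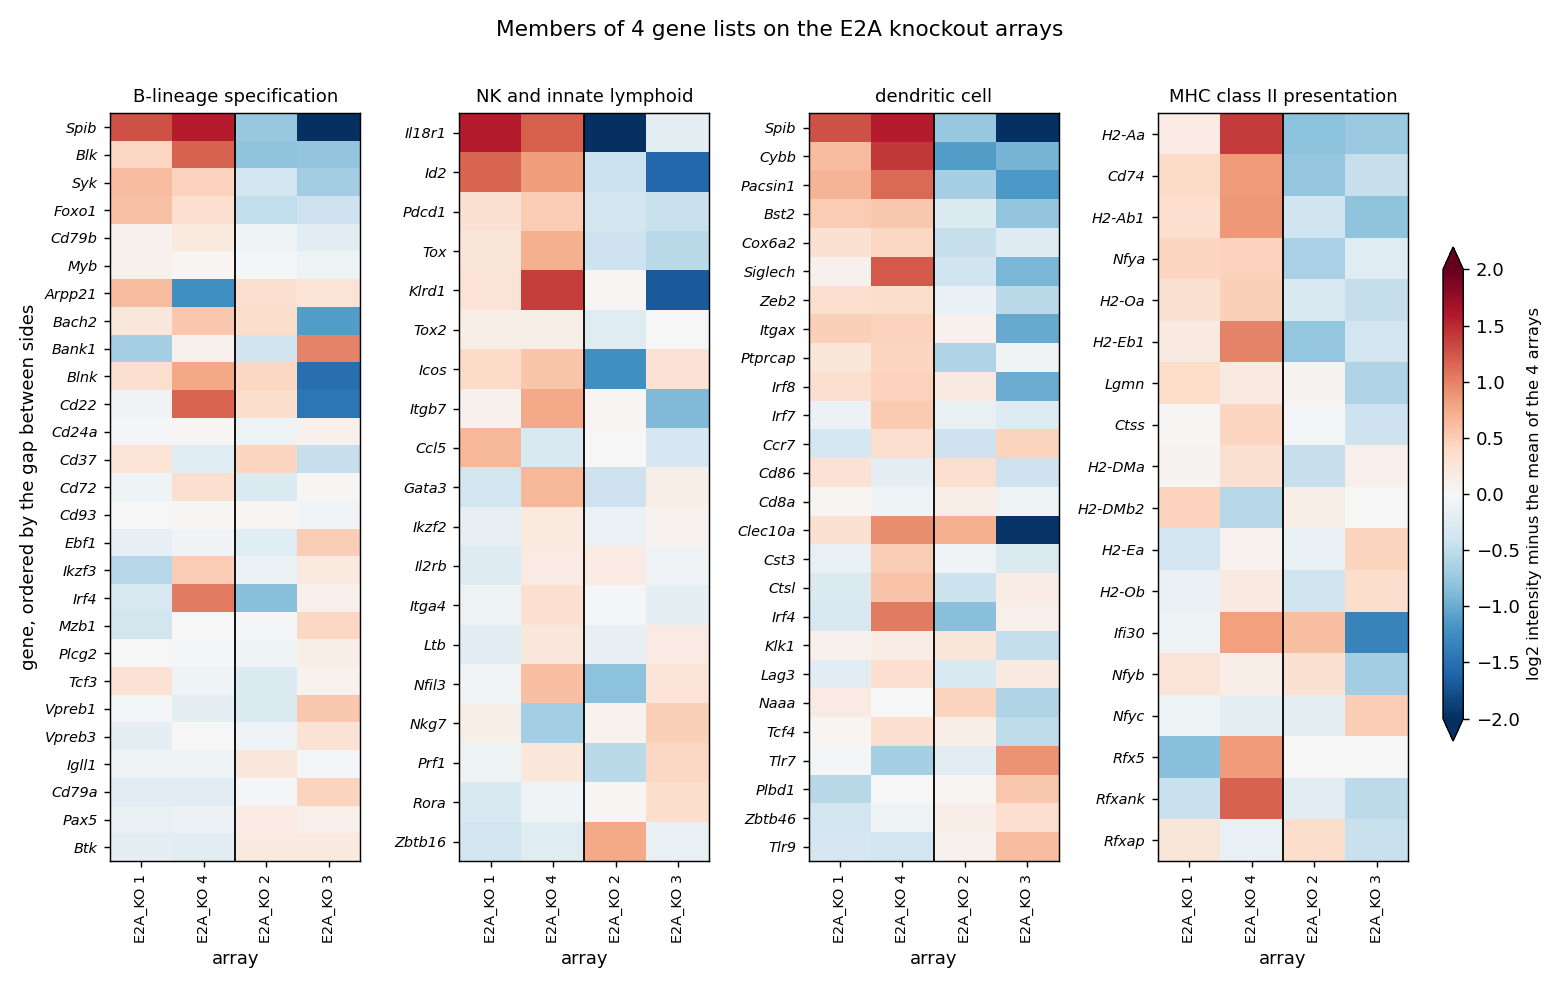
Each tested member of the B-lineage, NK and innate lymphoid, dendritic cell and MHC class II lists (rows) on the 4 E2A_KO arrays (columns, Ly6d-high left of the line), coloured by log2 intensity minus the mean of the 4 arrays and ordered by gap, with colours saturating at 2 in either direction. Red on the left and blue on the right run through 8 of 18 class II genes and 11 of 26 dendritic cell genes but only 6 of 27 B-lineage genes.

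Spib was the member of the B-lineage and dendritic lists that followed Ly6d most closely. It read 6.59 and 6.88 on E2A_KO 1 and 4 and 4.57 and 3.23 on E2A_KO 2 and 3, a gap of 2.03. The arrays with E2A read 4.0 and 4.99 (WT) and 5.23 and 4.57 (HEB_KO), so both Ly6d-high values lay above that range. In E2A_KO as a whole Spib did not pass the test against WT (difference 0.83, SE 0.92, limma adjusted p 0.713), and the E2A_KO values lay on both sides of the WT arrays.

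Further genes of plasmacytoid dendritic cells were higher on the same arrays as Spib. Pacsin1, an adaptor of membrane traffic used as a marker of plasmacytoid dendritic cells, read 4.93 and 5.39 on the Ly6d-high arrays and 3.58 and 3.10 on the Ly6d-low arrays (gap 1.35). Siglech, a surface lectin of these cells, read 5.80 and 6.95 against 5.32 and 4.81 (gap 0.48), and both Ly6d-high values were above the highest array with E2A (5.31). Cybb, the oxidase subunit of phagocytes that is also present in dendritic cells, read 4.83 and 5.63 against 3.10 and 3.29 (gap 1.55). A probe set for Cybb with lower signal ran in the opposite direction, at 2.67 and 2.77 against 3.69 and 3.33, and another ran the same way with a gap of 0.35, so Cybb is uncertain. Bst2, an interferon-inducible surface protein of plasmacytoid dendritic cells, read 6.13 and 6.15 against 5.35 and 4.84 (gap 0.78), within the range of the arrays with E2A.

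Cox6a2, a subunit of cytochrome oxidase present in plasmacytoid dendritic cells, was higher on the Ly6d-high arrays (7.33 and 7.43 against 6.55 and 6.75), yet all 4 values lay below the lowest array with E2A (8.45). The integrin gene Itgax read 5.95 and 5.92 against 5.55 and 4.46 (gap 0.37), and the transcription factor gene Zeb2 had a gap of 0.47. Irf8, a transcription factor of plasmacytoid and type 1 conventional dendritic cells, read 11.93 and 12.05 against 11.78 and 10.60, a gap of 0.16 in which E2A_KO 3 alone stood low. Tcf4, the E protein that specifies plasmacytoid dendritic cells, read 10.39 and 10.68 against 10.49 and 9.84 on its brightest probe set, where the sides overlapped. Its other probe sets disagreed: 3 had the Ly6d-high arrays higher (gaps of 0.39, 0.37 and 0.24), 1 ran the other way by 0.02 and a dim one overlapped, so the position of Tcf4 is uncertain. Tlr9, the endosomal DNA sensor, was lower on the Ly6d-high arrays (5.31 and 5.28 against 5.74 and 6.26), as were Zbtb46, a factor of conventional dendritic cells (gap -0.24), and Plbd1 (gap -0.05). Of the 11 dendritic genes that were higher, 5 had both Ly6d-high values above the range of the arrays with E2A, 4 had both within it and 1 had both below it. The 5 include Cybb and Pacsin1, which passed the filter only because of the Ly6d-high E2A_KO arrays, so the filter favoured their place. Of the 2781 genes that were higher over the whole table, 463 (16.6%) had both above that range, 1148 (41.3%) both within it and 359 (12.9%) both below it. The conventional dendritic cell markers Batf3, Xcr1 and Cd209a did not pass the filter on dim probe sets. The summed linear intensity of the 26 tested members was 8191 and 9736 on the Ly6d-high arrays and 7398 and 4778 on the Ly6d-low arrays, against 7924 to 10750 on the arrays with E2A.

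**Figure D3:**
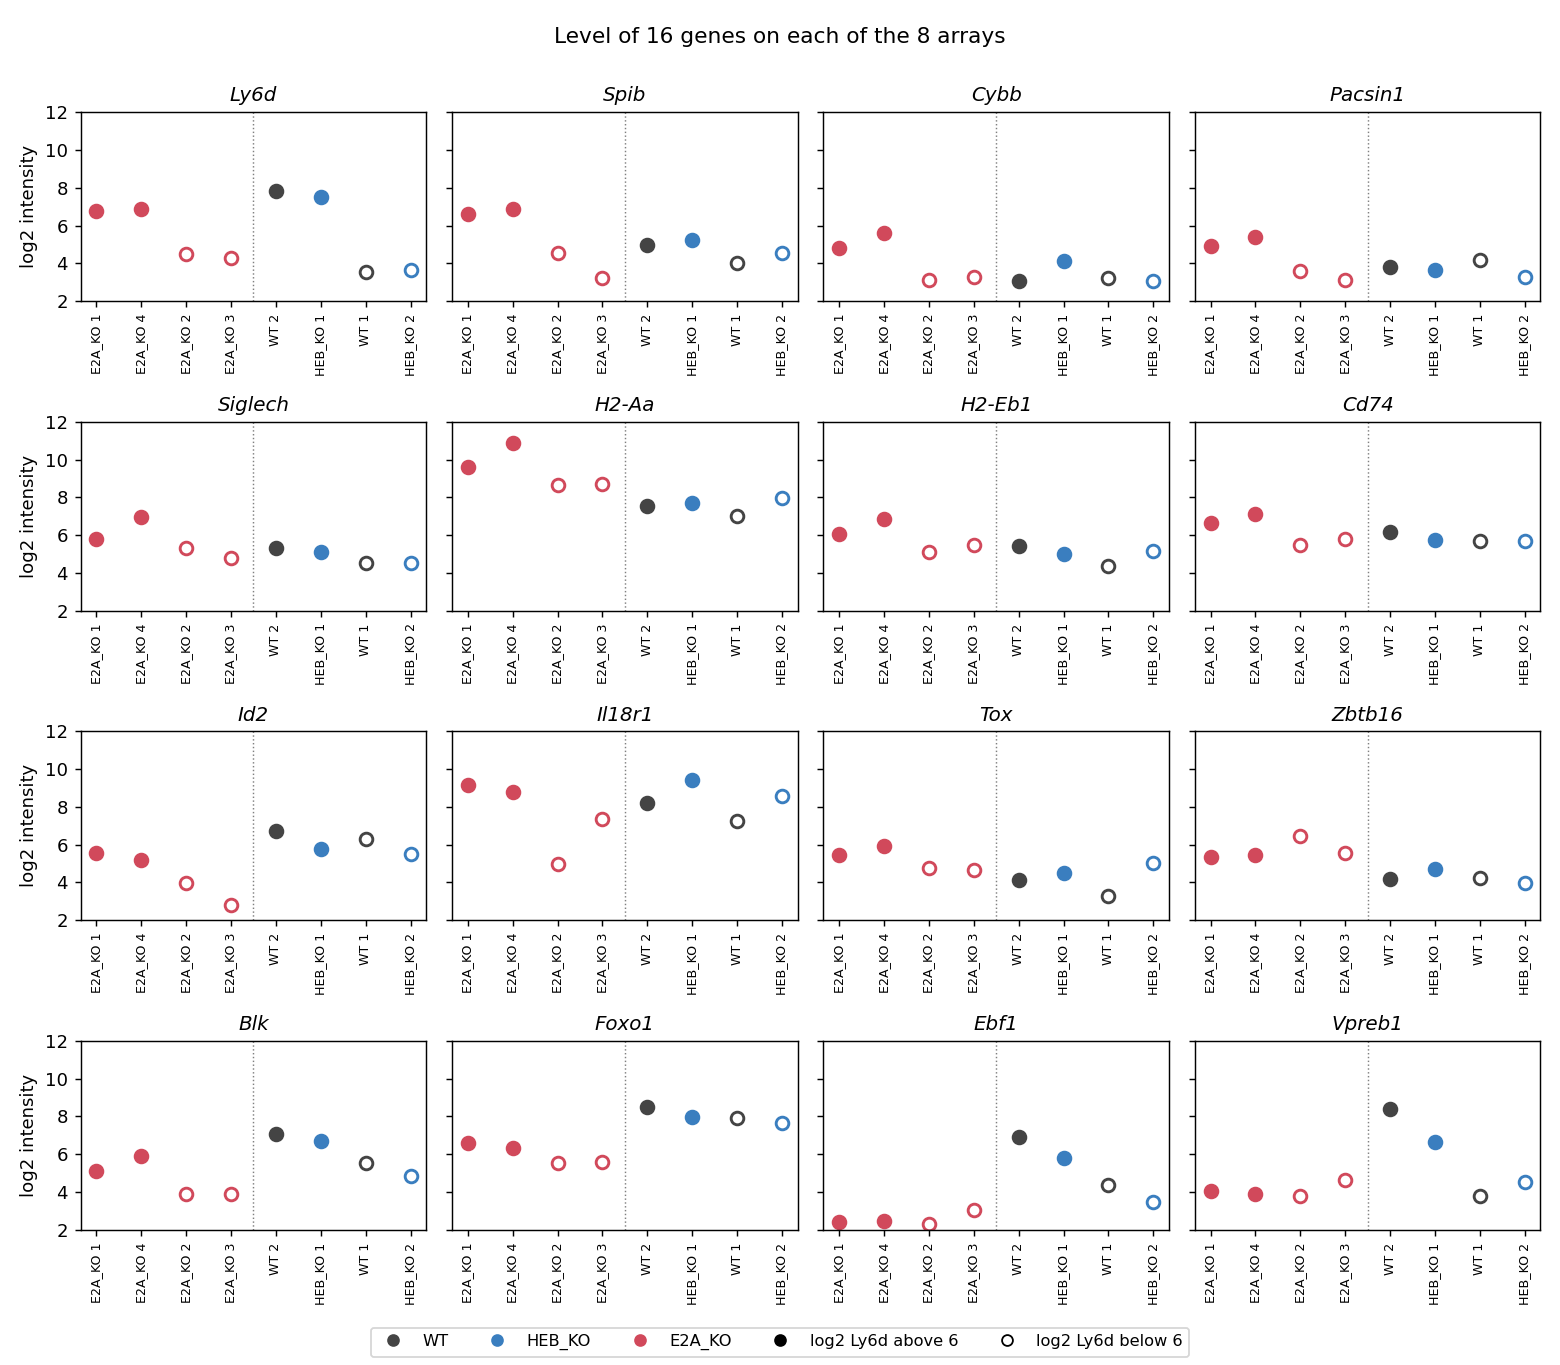
Log2 intensity (vertical axis) of 16 genes on each of the 8 arrays, the 4 E2A_KO arrays left of the dotted line in each panel, with filled points for arrays whose log2 Ly6d exceeded 6 and open points for the others. Spib, Pacsin1, Siglech, H2-Aa, H2-Eb1 and Cd74 have both filled E2A_KO points above both open ones, and Ebf1 and Vpreb1 separate only among the WT and HEB_KO arrays.

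Of the 18 tested class II genes, 8 went with Ly6d, with moderate gaps, none of which reached 1. H2-Aa, the alpha chain of I-A, read 9.62 and 10.86 on E2A_KO 1 and 4 and 8.64 and 8.72 on E2A_KO 2 and 3 (gap 0.91). All 4 E2A_KO values exceeded the highest array with E2A (7.98), and the difference from WT was 2.19 (SE 0.56, limma adjusted p 0.147), which did not pass the test. This probe set is of the type that can also bind related transcripts. Of the 3 other H2-Aa probe sets, all had the Ly6d-high arrays higher, with gaps of 0.69, 0.09 and 0.08.

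H2-Ab1, the beta chain that pairs with H2-Aa, read 7.74 and 8.28 against 7.01 and 6.60 (gap 0.73), and its WT and HEB_KO arrays read 7.09 to 7.81. Its 2 dimmer probe sets had a gap of 0.10 and an overlap. H2-Eb1, the beta chain of I-E, read 6.05 and 6.86 against 5.10 and 5.48 (gap 0.56). Cd74, the invariant chain that guides class II molecules to endosomes, read 6.62 and 7.10 against 5.48 and 5.79 (gap 0.83). For H2-Eb1 and Cd74 both Ly6d-high values lay above every array with E2A, whose highest values were 5.43 and 6.15. H2-Oa, a chain of the DO protein that tempers peptide loading, read 7.44 and 7.61 against 6.83 and 6.67 (gap 0.61) and stayed within the range of the arrays with E2A.

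Among regulators and proteases of the pathway, Nfya, a subunit of the NF-Y factor that binds the Y box, read 6.49 and 6.51 against 5.41 and 5.80 (gap 0.69). Lgmn and Ctss, lysosomal proteases that process antigen and the invariant chain, were higher by 0.13 and 0.07, within the difference of a typical gene between arrays of 1 side. Rfx5, Rfxank and Rfxap, the subunits of the factor that binds the X box, did not separate the sides, and E2A_KO 1 and 4 lay on opposite sides of the Ly6d-low values for Rfx5. Ciita did not pass the filter. None of the 18 tested members was lower on both Ly6d-high arrays, and 4 of the 8 that were higher (50.0%) lay above the range of the arrays with E2A on both, beside the 16.6% of all higher genes given above. E2A_KO 4 was the highest of the 4 arrays for H2-Aa, H2-Ab1, H2-Eb1, Cd74 and H2-Oa, and the summed linear intensity of the list was 5893 and 8488 on E2A_KO 1 and 4, 4839 and 5396 on E2A_KO 2 and 3, and 5293 to 6397 on the arrays with E2A.

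Of the innate lymphoid list, Id2 and Il18r1 reached a gap of 1. Id2, an inhibitor that binds E proteins and is needed for NK and innate lymphoid cells, read 5.54 and 5.21 on E2A_KO 1 and 4 and 3.95 and 2.81 on E2A_KO 2 and 3 (gap 1.26). The arrays with E2A read 5.49 to 6.75, so the Ly6d-low arrays were below that range and the Ly6d-high arrays at or just under its lower edge. The 2 other Id2 probe sets lay between 2.38 and 3.63 on all arrays and did not show this distance. Il18r1, a receptor chain for interleukin 18, read 9.15 and 8.78 against 5.0 and 7.38 (gap 1.40). The arrays with E2A read 7.24 to 9.42, so E2A_KO 2 alone lay below them.

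Tox, a nuclear factor needed for innate lymphoid and NK development, read 5.45 and 5.91 against 4.79 and 4.66 (gap 0.65), and both Ly6d-high values lay above the highest array with E2A (5.03). A dimmer Tox probe set had a gap of 0.02 and another overlapped. Pdcd1, the checkpoint receptor PD-1 that also marks innate lymphoid precursors, read 3.88 and 4.07 against 3.20 and 3.12 (gap 0.67). Klrd1, the NK receptor chain CD94, read 7.69 and 8.80 against 7.45 and 5.74 (gap 0.24). The integrin gene Itgb7 had a gap of 0.06, and Icos, a costimulatory receptor, one of 0.08. These gaps and that of Klrd1 were smaller than the difference of a typical gene between arrays of the same side.

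Zbtb16, the factor PLZF of innate-like lymphocytes and innate lymphoid precursors, read 5.35 and 5.47 on the Ly6d-high arrays and 6.48 and 5.58 on the Ly6d-low arrays (gap -0.10), and all 4 lay above the highest array with E2A (4.71). Its 2 dimmer probe sets had the Ly6d-high arrays higher, with gaps of 0.37 and 0.24, so its direction across the split is uncertain. Rora, a factor of type 2 innate lymphoid cells, also had a gap of -0.10. Gata3, which is required for T cells and for innate lymphoid cells, read 3.86 and 4.89 against 3.82 and 4.34, with overlap. The NK cell genes Ncr1, Eomes, Tbx21, Gzma, Gzmb and Klrk1 did not pass the filter. The T-lineage list had 2 of 13 tested members higher (15.4%, beside 23.3% of all tested genes), Cd7 and Lat, with gaps of 0.08 and 0.04. The difference of E2A_KO from WT did not pass limma's test for any of the 19 innate lymphoid, 26 dendritic or 18 class II genes. On simulated data that test recovered 0.1% of 2-fold and 93.2% of 4-fold changes. A gene without a call is therefore not shown to be unchanged. At an unadjusted p under 0.05, 5 innate lymphoid genes were higher and 3 lower, 3 dendritic genes were lower and 3 class II genes higher, where 427 of all 11957 genes (3.57%) were higher and 1172 (9.80%) lower. After adjustment 53 of all genes passed (0.0502% rose and 0.393% fell). Those 53 became 7 without WT 1, 2 without WT 2, 35 without E2A_KO 1, 20 without E2A_KO 2 and 104 without E2A_KO 3. Against HEB_KO, 0.0167% of all genes rose and 0.100% fell.

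The lymphoid priming list, genes active in the progenitor before it commits, had 9 of 22 members higher on both Ly6d-high arrays and none lower. Lsp1, an actin-binding protein of leukocytes, read 10.16 and 10.30 against 9.45 and 9.27 (gap 0.71). Stat5b, which carries the signal of the interleukin 7 receptor, read 6.53 and 7.31 against 5.69 and 5.86 (gap 0.67). Runx1, Bcl11a and Jak3 had gaps of 0.49, 0.40 and 0.37, and Flt3, the receptor used in the gate, one of 0.11 (10.38 and 10.53 against 10.12 and 10.27). Il7r, the gene of the gated CD127, was not among the 9, and it fell in E2A_KO against WT by 2.15 on the log2 scale (SE 0.32, limma adjusted p 0.033). That call was lost without WT 1 or WT 2 (limma adjusted p 0.149 and 0.316) and without E2A_KO 1 (0.0818).

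Of 25 tested granulocyte and monocyte genes, 10 were lower on both Ly6d-high arrays, where 12.9% of all genes were, and 2 were higher. Without E2A_KO 3 the lower members were 11 of 25 (44.0%), beside 29.7% of all tested genes. Prtn3, a neutrophil protease made by early myeloid progenitors, read 7.45 and 7.50 on E2A_KO 1 and 4 and 8.45 and 8.73 on E2A_KO 2 and 3 (gap -0.95). The lysozyme genes Lyz1 (8.33 and 7.66 against 8.77 and 8.82) and Lyz2 (5.81 and 5.29 against 6.15 and 6.56) and the protease gene Ctsg (7.80 and 6.07 against 9.49 and 8.20) had gaps of -0.44, -0.34 and -0.41. S100a8, a calcium-binding protein of mature neutrophils, read 3.69 and 3.11 against 3.90 and 8.63, so its high level belonged to E2A_KO 3 alone, as for Chil3 (2.56 and 2.40 against 2.66 and 6.61). The summed linear intensity of the 25 tested genes was 6067 and 3570 on E2A_KO 1 and 4 and 6647 and 6537 on E2A_KO 2 and 3, against 5159 to 9374 on the arrays with E2A, and no member was at 0 (lowest log2 value 2.36). The part of myeloid cells in the other differences was not tested.

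Mcpt8, a protease of basophils, had the farthest downward gap of any list member. It read 3.78 and 3.60 on the Ly6d-high arrays and 5.24 and 5.14 on the Ly6d-low arrays (gap -1.36). Cpa3, a protease of mast cells and their progenitors, ran the other way at 6.53 and 6.29 against 5.76 and 4.31 (gap 0.53).

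Over all tested genes, the farthest gaps upward lay mostly with genes of no list, and Ifit2 stood in the interferon response list. Rilpl1, which links Rab GTPases to the cilium, read 7.76 and 7.32 on E2A_KO 1 and 4 and 4.50 and 4.21 on E2A_KO 2 and 3 (gap 2.82), and the arrays with E2A read 8.15 to 8.88. Another Rilpl1 probe set agreed in direction with a gap of 0.94, while 2 more overlapped. Ifit2, an interferon-induced antiviral gene, read 5.53 and 5.01 against 2.65 and 2.98 (gap 2.04), with all arrays with E2A between 5.59 and 6.20. Cyp4v3 (5.52 and 5.66 against 3.30 and 3.31), a fatty acid hydroxylase gene, and Ccl27a (4.52 and 4.70 against 2.66 and 2.65), a chemokine gene, had gaps of 2.21 and 1.86. In all 4 genes the Ly6d-low arrays lay below every array with E2A, and the Ly6d-high arrays lay within that range (Ccl27a) or less far below it.

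Gpr25, a G protein-coupled receptor gene, read 6.23 and 6.33 against 4.35 and 4.24 (gap 1.89). Noct, a circadian phosphatase gene, had a gap of 1.63 (7.81 and 7.96 against 5.37 and 6.18), Ctnnd2, a catenin gene, one of 1.69 (7.07 and 7.37 against 3.07 and 5.39), and Mei4, a meiotic recombination gene, one of 1.57 (4.80 and 4.15 against 2.49 and 2.59). Ak4 and Ifi209, with gaps of 1.90 and 1.69, overlapped when all probe sets of the gene were averaged. Among the other genes past a gap of 1, Fgr, a SRC-family kinase gene of myeloid and B cells, read 6.66 and 7.32 against 5.45 and 4.03, and Ptprf, a receptor phosphatase gene, read 6.80 and 7.28 against 5.43 and 5.33. Both Ly6d-high values of Fgr and of Ptprf exceeded every array with E2A (highest 5.37 and 4.96).

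Position against the arrays with E2A differed among these 68 genes. Both Ly6d-low E2A_KO arrays lay below all 4 arrays with E2A for 54 of the 68, where 22.5% of all tested genes did so. Both Ly6d-high arrays lay within that range for 21, above it for 23 and below it for 8, where 10.9% of all tested genes had both above and 16.8% both below. In 19 genes, Blk, Ccl27a, Mei4, the cytokine receptor gene Lifr and the adhesion gene Cd99 among them, the Ly6d-high arrays were within and the Ly6d-low arrays below. The rule used the same 4 arrays, so these counts describe them and support nothing further. Of the 68, Sdc4, a syndecan gene, fell in E2A_KO against WT and no gene rose in limma's test. At an unadjusted p under 0.05, 10 of the 68 were lower and 3 higher (14.7% and 4.41%), beside 9.80% and 3.57% of all tested genes.

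Downward, 12 genes reached a gap of 1. Trim2, a ubiquitin ligase gene, read 2.98 and 2.57 on the Ly6d-high arrays and 5.11 and 6.25 on the Ly6d-low arrays (gap -2.13) on a probe set that can bind related transcripts, and another of its probe sets ran the same way with a gap of -0.66. Its 4 further probe sets were dim and did not separate the sides by more than 0.06. Slc22a15, a transporter gene, had a gap of -1.32 (4.19 and 4.56 against 6.10 and 5.89) and Nek4, a kinase gene, one of -1.23 (4.18 and 3.91 against 5.41 and 5.73). Mid1, a ubiquitin ligase gene on the X chromosome, read 3.86 and 7.37 against 8.54 and 8.80 and also varied from 5.74 to 9.22 among arrays with E2A. Stard6, Nsun6, Cntln, Saal1, Ccnjl, Zfp40 and Nr4a2 had gaps from -1.17 to -1.03, and Nr4a2, an immediate early nuclear receptor gene, overlapped when its probe sets were averaged. None of the 12 passed limma's test of E2A_KO against WT, and 1 was lower at an unadjusted p under 0.05.

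The arrays with E2A split by Ly6d as well, which allows the same description where E2A is present. Ly6d read 7.83 on WT 2 and 7.52 on HEB_KO 1, the Ly6d-high arrays, but 3.53 on WT 1 and 3.63 on HEB_KO 2, a gap of 3.89. Every genotype thus had arrays on both sides of the threshold. There 17 of the 27 tested B-lineage genes were higher on both Ly6d-high arrays, where 29.5% of all tested genes were higher and 13.6% lower, against the 6 of 27 without E2A. The same held for 12 of 26 dendritic (46.2%), 9 of 18 class II (50.0%), 12 of 22 lymphoid priming (54.5%) and 6 of 19 innate lymphoid genes (31.6%), so the dendritic, class II and priming lists also stood above the share of all genes where E2A was present. Of 25 granulocyte and monocyte genes, 6 were lower and 4 higher there, beside 13.6% and 29.5% of all tested genes. That list thus leaned the same way with E2A as without it. Rag1 read 9.57 and 8.49 on those Ly6d-high arrays and 5.97 and 5.81 on the Ly6d-low arrays (gap 2.52). Vpreb1 read 8.42 and 6.67 against 3.78 and 4.53 (gap 2.13), and Ebf1 read 6.90 and 5.79 against 4.36 and 3.46 (gap 1.43). None of these 3 genes separated the E2A_KO arrays by Ly6d. Poly-A spikes were again lower on the Ly6d-high arrays, at 9.52 and 8.65 against 11.87 and 11.74. The Gapdh distance (5.0 and 4.67 against 6.03 and 5.14) and the hybridization controls (10.29 and 10.32 against 11.40 and 11.60) were lower there too, and the part of these measures was not tested.

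Blk kept its association in both settings, at 7.09 and 6.70 against 5.56 and 4.84 with E2A (gap 1.14). It was 1 of 4 genes with a gap of at least 1 in both, with Ly6d itself, Mei4 and Gpr25. Of the 31 genes past a gap of 1 with E2A (0.259% of tested genes), 15 were also higher on both Ly6d-high E2A_KO arrays, beside 23.3% of all tested genes. Of the 68 genes past a gap of 1 without E2A, 31 were also higher on both Ly6d-high arrays with E2A, beside 29.5% of all tested genes. Ly6d, whose level divided the arrays, is among the genes counted each time, and its agreement was fixed in advance. Spib had a gap of 0.42 with E2A and Siglech one of 0.56, both in the same direction as without it. Of the genes described above, H2-Aa, H2-Ab1, H2-Eb1, Id2, Il18r1, Tox, Cybb and Pacsin1 overlapped between the Ly6d sides where E2A was present. Whether the gaps with and without E2A differ was not tested, because both sets of arrays were divided by a measured value.

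**Figure D4:**
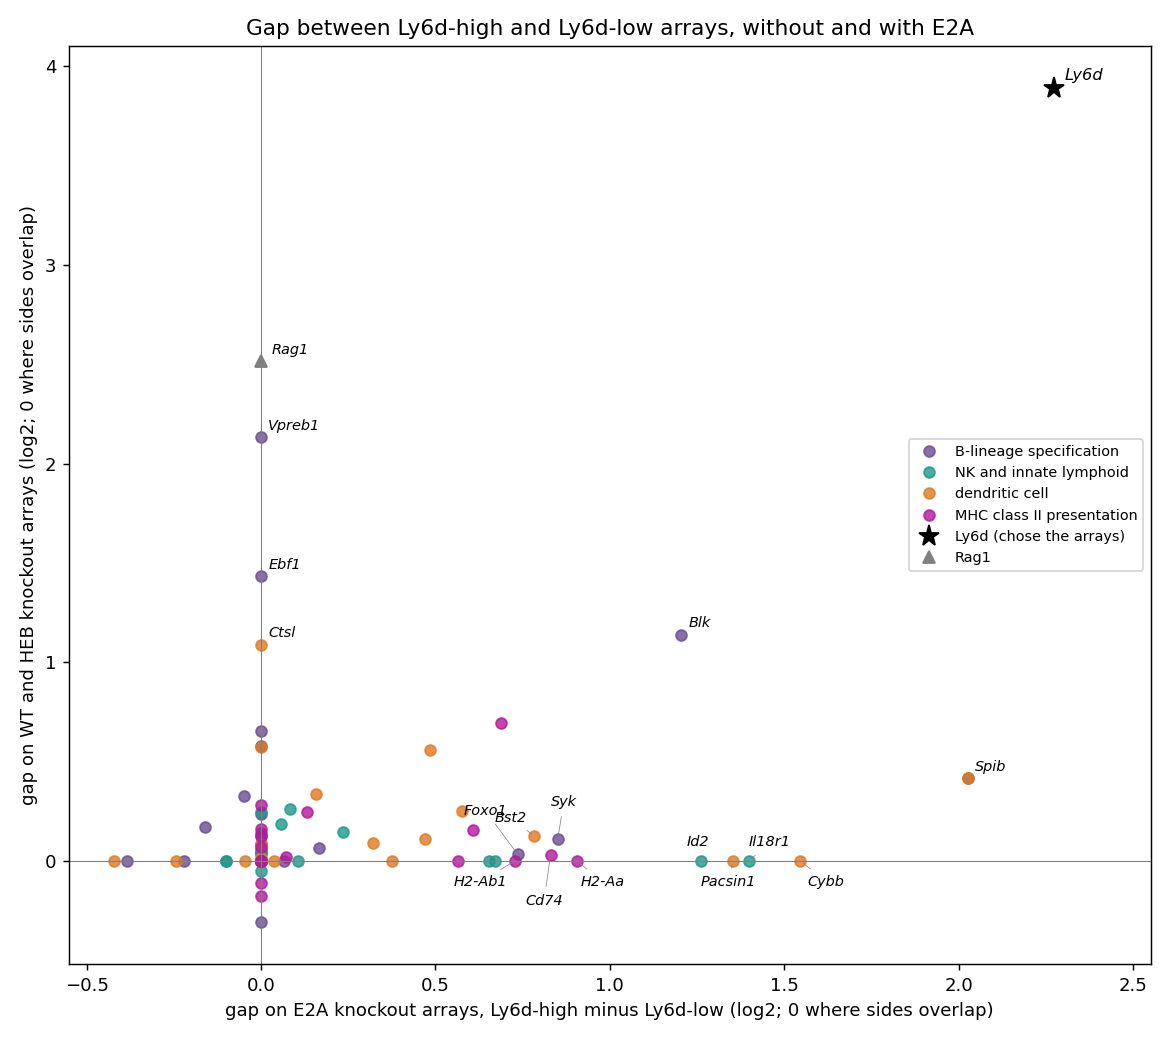
Gap between Ly6d-high and Ly6d-low arrays in log2 units for each tested member of 4 gene lists and for Rag1, on the E2A_KO arrays (horizontal axis) and on the WT and HEB_KO arrays (vertical axis), with 0 where the sides overlap and Ly6d, which chose the arrays, as a star. Rag1, Vpreb1 and Ebf1 lie on the vertical axis at 2.52, 2.13 and 1.43, Cybb, Il18r1, Pacsin1 and Id2 lie on the horizontal axis at 1.26 to 1.55, and Blk is apart in both at 1.20 and 1.14.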

How the data were processed

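Total RNA of 8 pools of sorted cells was amplified, labelled with biotin and hybridised to Affymetrix arrays, per the labels. The authors deposited an intensity value per probe set, made with RMA per the submitters' processing notes; its version and the probe set definitions are not given in sources used here. Deposited intensity values had the size and range of a linear scale, so their log2 was used with no further normalization. The 45101 probe sets comprised 64 controls, 34945 with a single gene name in the annotation used here, 932 with several and 9160 with none. For each of 18193 genes the brightest probe set on average was kept, and the gene was tested where that probe set exceeded the median of 2 or more arrays, which left 11957 genes. Values near the floor understate differences.

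The E2A_KO arrays were divided at a log2 Ly6d of 6, and the gap between the sides was computed for each gene with no test. Genotypes, which come from the labels, were compared with limma 3.58.1 (R 4.3.3), 1 mean per genotype, two-sided, and Benjamini-Hochberg adjustment over all tested genes, with 0.05 as the threshold for "rose" and "fell". A log2 difference had a median SE of 0.28, with 5 residual degrees of freedom. The members and the 16 gene lists were chosen with earlier results of these data known, and genes can stand in several lists. Named were a standing set of lymphoid, dendritic and class II genes, members of the B-lineage, recombination, innate lymphoid, dendritic and class II lists with a gap of at least 1, up to 4 such members of other lists, and the 12 genes with the farthest gaps each way, skipping predicted genes. Further list members, Fgr, Ptprf, Lifr, Cd99 and Sdc4 were named after their values were seen. List symbols without a match in the annotation were not analysed here. Promoters came from a RefSeq table of GRCm38.p6. Alternatives were no filter or the 75th percentile, median centring, cyclic loess, the mean of probe sets, other gap sizes, a replicate block, eBayes with trend and robust, only the compared genotypes and leaving out each array. The scripts were tested on simulated data, with 200 changed genes in each of 10 sets. Against HEB_KO, limma recovered 0% of 2-fold and 93.7% of 4-fold changes there.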

Additional observations from a re-analysis of the deposited data

Results flagged for a closer look

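Igll1, a surrogate light chain gene, stood apart on E2A_KO 2, where it read 5.644 while the 3 other E2A_KO arrays lay close together. The distance to the nearest of them was 0.841 of the whole range. Among 54 named genes examined in this way no other array stood apart, and chance flags about 1 group in 20. Tcf3 differed between the E2A and HEB knockouts by -4.517 in log2 units, and it is the gene targeted in E2A_KO.

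For 3 genes the order of the Ly6d sides was opposite with and without E2A, which was not tested. Ctnnd2, a catenin gene, had a gap of 1.685 on the E2A_KO arrays and -0.797 on the arrays with E2A. Ifit2, an interferon-induced gene, had gaps of 2.036 and -0.118. Nek4, a kinase gene, had gaps of -1.232 and 0.647.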

How the results depend on the processing

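Among the named genes, no difference called against WT and no gap of at least 1 reversed direction under any alternative run. Differences from WT that were not called and smaller gaps were not held to this rule, and their sign can change. With a gap of at least 1, 68 genes were higher and 12 lower. Averaging the probe sets of a gene gave 29 and 3, a minimum gap of 0.5 gave 461 and 127, no minimum gave 2781 and 1545, and the filter at the 75th percentile gave 6 lower genes. Leaving out an E2A_KO array gave 215 to 753 higher and 33 to 181 lower genes, since fewer arrays separate more easily. In the same way the higher members were 8 to 13 for the B-lineage list, 9 to 14 for innate lymphoid, 11 to 18 for dendritic and 9 to 12 for class II genes, and the lower granulocyte and monocyte members were 11 to 19. Of all tested genes, 36.8% to 44.5% were higher and 24.5% to 30.5% lower in these runs. The 75th percentile filter, which tests fewer genes, left 5 higher innate lymphoid, 7 higher dendritic and 6 lower granulocyte and monocyte members. Of 131 values for the 29 named genes past a gap of 1 with all arrays kept, 117 stayed past it and 3 overlapped.

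Genes called in E2A_KO against WT numbered 53, with trend and robust 91, with only the compared genotypes 26, and 2 (without WT 2) to 104 (without E2A_KO 3) with an array left out. Against HEB_KO they numbered 14, with trend and robust 42, with only the compared genotypes 6, and 1 (without HEB_KO 1, HEB_KO 2 or E2A_KO 1) to 21 with an array left out, with 2 and 4 without E2A_KO 2 and 4. Where WT or HEB_KO kept 1 array, it was assumed to vary like the other groups. The replicate numbers did not pair the arrays (correlations of deviations -0.154, -0.094, 0.148 and -0.009), and with the replicate number as a block the calls numbered 12 against WT and 3 against HEB_KO. The cause of these changes was not tested. Levels near or below the array median, such as those of Pax5, Ebf1, Cd79a, Rag1 and Vpreb1 without E2A, are close to background, which limits what a gap can show there.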

Other observations

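Cell cycle genes did not follow Ly6d without E2A. Of 29 tested members of the list 3 were higher (10.3%) and 4 lower (13.8%) on both Ly6d-high arrays, beside 23.3% and 12.9% of all tested genes. The median member deviated from its mean over the 4 arrays by 0.224 and -0.527 on E2A_KO 1 and 4 and by 0.633 and -0.269 on E2A_KO 2 and 3. Their level was therefore ordered along other lines than Ly6d, with E2A_KO 1 and 2 above E2A_KO 3 and 4. Of 18 immediate early and heat shock genes, 1 was higher (5.56%) and 3 lower (16.7%, near the share of all genes), and the median member was highest on E2A_KO 3, at 0.459. Interferon response genes stood near the share of all genes, with 5 of 21 higher and 2 lower, and Oas2, an antiviral synthetase gene, was lower on the Ly6d-high arrays (4.84 and 4.98 against 5.24 and 6.10) while Ifit2 was higher.

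Single genes of stem and multipotent progenitors ran in both directions. Kit, the receptor for stem cell factor, read 5.38 and 4.81 on E2A_KO 1 and 4 and 4.05 and 3.98 on E2A_KO 2 and 3 (gap 0.76), and all 4 values lay below the lowest array with E2A (5.77). Another Kit probe set ran the same way (gap 0.41). Its 4.78 and 4.98 on E2A_KO 1 and 4 lay within its range with E2A (4.17 to 5.28). Angpt1, an angiopoietin made by stem and progenitor cells, ran the other way at 4.46 and 4.76 against 5.69 and 5.76 (gap -0.93), again with all 4 below the arrays with E2A (6.51 to 7.36). Meis1, a homeobox gene of stem cells, had a gap of 0.39 and its partner Hoxa9 a gap of -0.27. In the list as a whole 3 of 18 tested members were higher and 3 lower (16.7% each), beside 23.3% and 12.9% of all tested genes.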
